A study of Mus musculus with 10 samples.

Results

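The 37 genes encoded by the mouse mitochondrial genome were followed in bulk RNA from whole liver. Members were all gene rows placed on the mitochondrial chromosome of GRCm38, that is 13 protein-coding genes, 2 rRNA genes and 22 tRNA genes, of 55385 gene rows in all. Frozen liver was homogenised and its RNA sequenced on the BGISeq-500 platform in 10 libraries. In 5 libraries the genotype label is Ctrl (control libraries), and in the other 5 it is a knockout, titled Alk1-HEC-KO (labelled knockout libraries). Alk1 is another name of Acvrl1, the gene of an endothelial receptor for BMP ligands. No strain, age, sex or treatment is labelled for either group, no Cre driver or allele is named, and HEC is not spelled out. It is not stated that libraries of a group are from different animals, so a p-value measures the spread between these libraries, which may be technical.

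Mitochondrial DNA is a small circle read from both strands as long precursor RNAs. tRNAs lie between most of the other genes, and their excision by nuclear-encoded nucleases frees the mRNAs and rRNAs. The 13 proteins are all subunits of oxidative phosphorylation: complex I takes electrons from NADH, complex III passes them to cytochrome c, complex IV hands them to oxygen, and complex V makes ATP. Complex II has no mitochondrially encoded subunit. Hepatocytes are rich in mitochondria, which serve fatty acid oxidation, the urea cycle and gluconeogenesis. In bulk liver, fewer cells of a type and less RNA per cell cannot be told apart.

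Libraries held 20.91 to 21.56 M (mega) estimated counts. Acvrl1 went against the knockout label, with 0.296 to 1.05 TPM in the control libraries and 1.12 to 1.92 TPM in the labelled knockout libraries (edgeR log2 fold change 0.99 ± 0.32 SE, adjusted p = 0.336). TPM are transcript abundances per length, scaled to the same sum in each library. All 7 hepatocyte markers were detected, and their summed level ran from 45754 to 83764 TPM. It was lowest in labelled knockout library 5 and control library 3, which had the third-highest and the highest mitochondrial share of counts. Control library 1, with the second-highest share, had 68622 TPM, and control library 5, with the lowest share, 70451 TPM. The median over all libraries was 74209 TPM. Since TPM have a fixed sum, a higher mitochondrial share leaves less for all other genes. Summed markers of recruited leukocytes did not overlap between the groups, at 2.63 to 6.07 TPM in control and 6.64 to 24.6 TPM in labelled knockout libraries. The part of these markers in the mitochondrial values was not tested.

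The share of counts on the 37 genes differed more within the groups than between them. Control libraries 1 to 5 had 12.8%, 9.44%, 16.6%, 7.39% and 5.82% of their counts on mitochondrial genes. Labelled knockout libraries 1 to 5 had 7.59%, 7.65%, 8.86%, 9.72% and 12.01%. The group means were 10.4% ± 4.33 and 9.16% ± 1.82 (SD, n = 5 each), with a difference of -1.24 percentage points (labelled knockout minus control). Control libraries held both the highest and the lowest value, so the labelled knockout libraries lay wholly inside the control range. Without control library 3 the difference was 0.31 percentage points in the other direction. As a share of TPM the means were 14.4% ± 4.76 in control and 13.3% ± 1.75 in labelled knockout libraries.

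The deposited file names carry numbers that fall into 3 consecutive runs, whose meaning the labels do not give. In the first run, control libraries 1 and 2 had 12.8% and 9.44% and labelled knockout library 1 had 7.59%. In the second run, control libraries 3, 4 and 5 had 16.6%, 7.39% and 5.82%, and labelled knockout library 3 had 8.86%. The third run held no control library. The single labelled knockout library was thus under both controls in the first run and between them in the second.

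The mRNAs made up nearly all of the mitochondrial counts. The 13 mRNA genes took 9.87% ± 4.13 of all counts in control and 8.76% ± 1.71 in labelled knockout libraries. The 2 rRNA genes took 0.527% ± 0.210 and 0.401% ± 0.160, although rRNA is the more abundant class in cells. How RNA was selected for the libraries is not given in the sources used here. The 22 tRNA genes took 0.0050% ± 0.0023 and 0.0047% ± 0.0020 of counts.

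**Figure D1:**
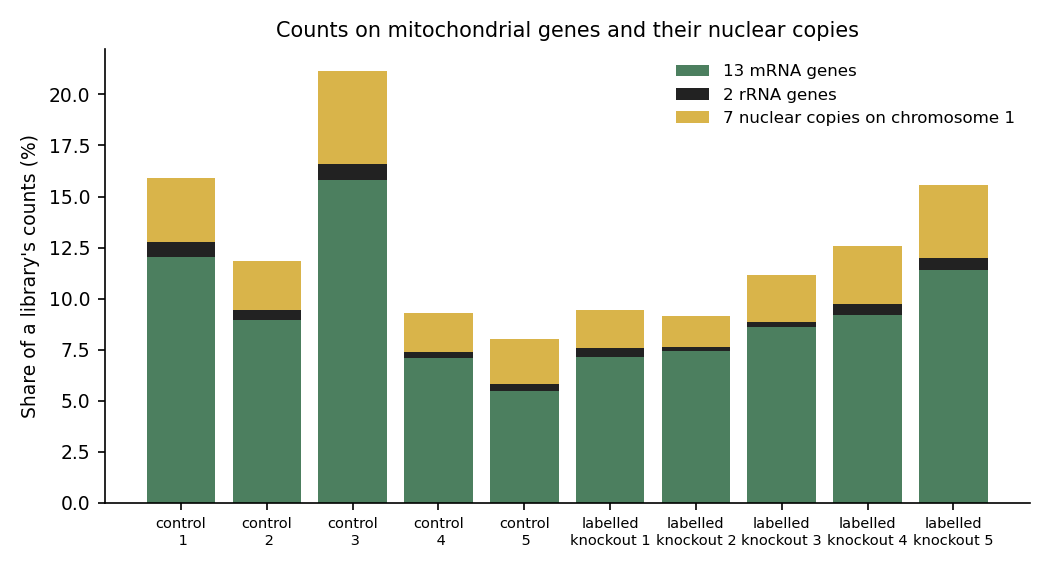
Each bar is 1 library and shows the percent of its estimated counts on the 13 mitochondrial mRNA genes, the 2 mitochondrial rRNA genes and their 7 nuclear copies on chromosome 1; tRNA genes are too small to draw. Control library 3 is tallest at 21.2% with the copies included and control library 5 shortest at 8.02%.

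A second set of counts with mitochondrial sequence was booked on the nuclear genome. Fragments of mitochondrial DNA inserted into chromosomes are known as nuclear mitochondrial segments, and a recent one can be almost identical to its source. On the minus strand of chromosome 1, between 24611535 and 24616197 (GRCm38), 7 unprocessed pseudogenes follow the mitochondrial gene order from mt-Co1 to mt-Nd4. They are Gm29216 (matching mt-Co1), Gm28661 (mt-Co2), Gm10925 (mt-Atp6), Gm28437 (mt-Co3), Gm28438 (mt-Nd3), Gm10222 (mt-Nd4l) and Gm28439 (mt-Nd4). These 7 rows were given 2.86% ± 1.06 of all counts in control and 2.42% ± 0.836 in labelled knockout libraries. That was 16.3% to 27.5% of the sum of mitochondrial genes and copies in a library. Of the other nuclear genes that share a stretch of 31 bases with a mitochondrial transcript, Cep295 had the most counts, 425.6 over all 10 libraries together. It is a protein-coding gene that shares only 4 of its 6124 such stretches. Next came the pseudogenes Gm13340 (45.2% of stretches shared, mainly with mt-Co1) with 349.2 counts and Gm13341 (48.0%, mt-Co2) with 261.9.

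Gm29216 (chromosome 1, 24615706 to 24616197) is 492 bases long and covers bases 1054 to 1545 of the mt-Co1 transcript. It differs from mt-Co1 at 6 positions, counted from the first base of the mt-Co1 transcript: T1056A, C1057T, A1059G, A1060G, C1062A and A1066T, with the mitochondrial base first. Both sequences are shown over bases 1054 to 1114, since this window holds every difference, which is in capitals.
mt-Co1: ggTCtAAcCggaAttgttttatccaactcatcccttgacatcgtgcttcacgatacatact
Gm29216: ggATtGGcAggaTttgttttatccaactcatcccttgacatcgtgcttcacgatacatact
The 479 bases after the last difference are one identical run. Only 13 of the 462 stretches of 31 bases in Gm29216 are absent from every mitochondrial transcript. Of the 1515 such stretches in mt-Co1, 1066 are absent from Gm29216. kallisto, the tool named in the submitters' processing notes, matches reads by such stretches, 31 bases being its default.

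Gm28661 (chromosome 1, 24614885 to 24615565) is identical to mt-Co2 over its whole length of 681 bases. The annotated copy lacks just the last 3 bases of mt-Co2, the stop codon, in capitals in the last 61 bases of the mt-Co2 transcript.
mt-Co2: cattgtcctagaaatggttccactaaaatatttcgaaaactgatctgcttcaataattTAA
Gm28661: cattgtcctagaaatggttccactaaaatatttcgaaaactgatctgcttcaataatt
No 31-base stretch of Gm28661 is its own, and 3 of the 654 of mt-Co2 are absent from the copy. Gm10925 (678 bases), Gm28437 (783 bases), Gm10222 (294 bases) and Gm28439 (876 bases) are likewise identical to their mitochondrial counterparts over their whole annotated lengths. Gm28438 differs from mt-Nd3 by the single change T3C, in capitals in the first 61 bases.
mt-Nd3: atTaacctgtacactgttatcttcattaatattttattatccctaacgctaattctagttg
Gm28438: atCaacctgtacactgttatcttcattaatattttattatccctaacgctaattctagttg
For reads inside the identical stretches, the mitochondrial gene and its copy cannot be told apart by sequence, so the counts of each are the estimates of the authors' quantification and are uncertain.

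The division of counts within a pair varied widely from library to library. For mt-Co2 the share on Gm28661 was 64.2%, 72.6%, 70.6%, 62.1% and 57.9% in control libraries 1 to 5. In labelled knockout libraries 1 to 5 it was 31.6%, 55.6%, 57.7%, 60.3% and 54.7%. Control libraries were higher on average (65.5% ± 6.07 against 52.0% ± 11.6), and labelled knockout library 4 lay within their range.

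The other 4 divided pairs also varied between libraries, and the groups overlapped in each. Gm28437 took 47.1% ± 6.77 of the mt-Co3 pair in control and 38.8% ± 6.99 in labelled knockout libraries. Gm10925 took 11.9% (labelled knockout library 2) to 40.5% (control library 5) of the mt-Atp6 pair. Gm29216 took 20.9% to 37.4% of the mt-Co1 pair, and Gm28438 48.9% to 73.3% of the mt-Nd3 pair. Gm10222 and Gm28439 were listed at 0 in all 10 libraries, so mt-Nd4l and mt-Nd4 carried all counts of their pairs. Per length Gm29216 had a mean level of 33504 TPM, above the 21841 TPM of mt-Co1 itself.

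**Figure D2:**
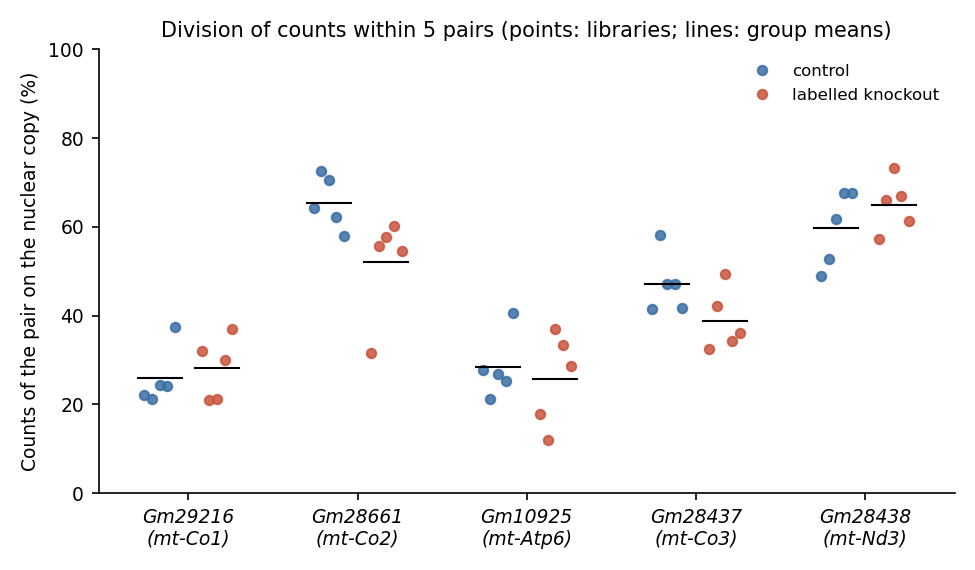
Each point is 1 library and gives the percent of the counts of a pair (mitochondrial gene plus nuclear copy) that the authors' quantification placed on the copy, for 5 pairs; lines are group means. The mt-Co2 pair ranges from 31.6% in labelled knockout library 1 to 72.6% in control library 2.

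Adding the copy to its gene changed how mt-Co2 followed the other mitochondrial mRNAs. The 6 mRNAs without an annotated copy of their own in this cluster (mt-Nd1, mt-Nd2, mt-Atp8, mt-Nd5, mt-Nd6 and mt-Cytb) served as the yardstick. Of these, mt-Atp8 shares 43 bases with mt-Atp6 that Gm10925 covers too. The measure was the log2 ratio of a gene's counts to the summed counts of these 6. Over the 10 libraries the SD of this ratio was 0.52 for mt-Co2 alone and 0.21 for mt-Co2 with Gm28661. For mt-Co3 it was 0.42 alone and 0.26 with Gm28437, and for mt-Nd3 0.49 and 0.37 with Gm28438. For mt-Co1 (0.26 and 0.25) and mt-Atp6 (0.17 and 0.17) it hardly moved. Across the 10 libraries, log2 CPM (counts scaled to a fixed library total) of mt-Co2 had a Pearson r of 0.37 with those of the 6 mRNAs together, against 0.91 for the copy Gm28661 and 0.89 for the sum. These r values are descriptions, and the libraries share their scaling by total counts.

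Of the 37 genes, 22 passed edgeR's filter on low counts, namely all 13 mRNAs, both rRNAs and 7 tRNAs. Called means a Benjamini-Hochberg adjusted p under 0.05 over all 12872 tested genes. By edgeR's quasi-likelihood test 0 of the 22 were called, against 0.357% of all tested genes. The count at an unadjusted p under 0.05 was also 0 (8.44% of all tested genes), and the groups overlapped in log2 CPM for each of the 22 (they did not for 1.68% of all tested genes). DESeq2 called 0 and had 1 at an unadjusted p under 0.05, mt-Tc. The median log2 fold change, labelled knockout over control, was -0.29 over the 22 genes and 0.00 over all tested genes. Mitochondrial fold changes were less precise than most, with a median SE of 0.37 against 0.19 over all tested genes. The direction of the mRNAs rested on 1 library: 10 of 13 had a negative log2 fold change with all libraries and 5 of 13 without control library 3.

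**Figure D3:**
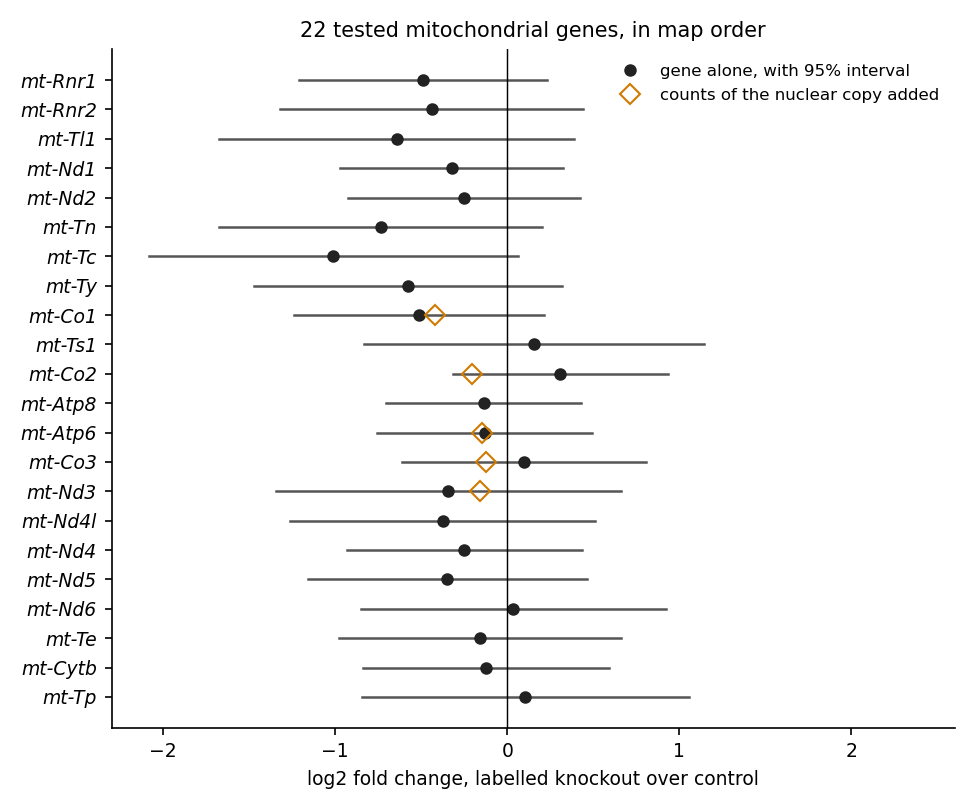
Points are edgeR log2 fold changes (labelled knockout over control) of the 22 tested genes with 95% intervals, and open diamonds the same with the counts of the nuclear copy added. Every interval spans 0, and mt-Co2 moves from 0.31 to -0.21.

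Complex IV, cytochrome c oxidase, has its 3 catalytic-core subunits encoded here, and their genes took 43.0% ± 1.92 of the member mRNA counts in control and 41.9% ± 4.52 in labelled knockout libraries. mt-Co1 (ENSMUSG00000064351.1, mitochondrial chromosome 5328 to 6872, plus strand) encodes the subunit that binds oxygen. It had 32255, 25664, 37190, 17549 and 11678 TPM in control libraries 1 to 5, and 15217, 15735, 22727, 21864 and 18534 TPM in labelled knockout libraries 1 to 5. Control library 3 was highest and control library 5 lowest, so the labelled knockout libraries lay inside the control range. The log2 fold change was -0.51 ± 0.34 SE (edgeR adjusted p = 0.717, 95% interval -1.24 to 0.21), -0.42 ± 0.33 SE with Gm29216 added and -0.18 without control library 3.

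mt-Co2 (7013 to 7696, plus strand) encodes the subunit that receives electrons from cytochrome c. Its levels in control libraries 1 to 5 were 9936, 5787, 9436, 6331 and 6361 TPM. Labelled knockout libraries 1 to 5 had 13124, 8023, 8365, 8456 and 11299 TPM. Labelled knockout library 1, where the least of the pair was placed on Gm28661, was highest. The log2 fold change was 0.31 ± 0.29 SE (edgeR adjusted p = 0.817), and with Gm28661 added it changed sign to -0.21 ± 0.30 SE (adjusted p = 0.881).

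mt-Co3 (8607 to 9390, plus strand), the third core subunit, averaged 12298 ± 3594 TPM in control and 13760 ± 3318 TPM in labelled knockout libraries. Its log2 fold change of 0.10 ± 0.33 SE (edgeR adjusted p = 0.953) also changed sign with the copy added, to -0.12 ± 0.29 SE. It was negative without control library 2 (-0.03) or labelled knockout library 5 (-0.16) as well. The annotated transcript ends in a single T after whole codons, as do those of mt-Nd4 and mt-Cytb. Such stop codons are completed by the poly(A) tail.

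Complex V, ATP synthase, has 2 subunits from this genome, both in its membrane part. mt-Atp8 (7766 to 7969) and mt-Atp6 (7927 to 8607) overlap by 43 bases in different reading frames and are known to share an mRNA. The shared stretch, from the start codon of mt-Atp6 to the stop codon of mt-Atp8 (first and last 3 bases), is printed since reads inside it fit both.
overlap of mt-Atp8 and mt-Atp6: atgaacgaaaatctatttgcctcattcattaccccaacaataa
mt-Atp6, which forms the proton channel, had 21514 ± 6657 TPM in control and 20553 ± 2872 TPM in labelled knockout libraries. mt-Atp8 had 11830 ± 2931 and 10739 ± 2301 TPM. The log2 fold changes were -0.13 ± 0.29 SE for mt-Atp6 and -0.14 ± 0.26 SE for mt-Atp8 (edgeR adjusted p = 0.925 and 0.912), and both were positive without control library 3 (0.13 and 0.04). TPM of so short a gene need care: mt-Atp8 has 13.2% of the length of mt-Co1, but 1 TPM stood for 4.13% as many counts. By CPM per kilobase of annotated length, mt-Atp8 (2896) lay well under mt-Atp6 (14624).

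Complex III, cytochrome bc1, has 1 subunit from this genome, cytochrome b. mt-Cytb (14145 to 15288, plus strand) had 13916, 11641, 20062, 11252 and 7357 TPM in control libraries 1 to 5. It had 8423, 12187, 14093, 11993 and 16130 TPM in labelled knockout libraries 1 to 5. The groups overlapped across most of their ranges. The log2 fold change was -0.12 ± 0.33 SE (edgeR adjusted p = 0.941), and 0.24 without control library 3.

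Complex I, NADH dehydrogenase, has 7 subunits from this genome, all in its membrane arm, and their genes took 34.0% ± 1.42 and 33.5% ± 3.14 of the member mRNA counts. mt-Nd1 (2751 to 3707) had 12737 ± 4434 TPM in control and 10794 ± 1564 TPM in labelled knockout libraries. mt-Nd2 (3914 to 4951) had 9512 ± 3510 and 8529 ± 1418 TPM, and mt-Nd4 (10167 to 11544) 8730 ± 3149 and 7857 ± 1633 TPM. The log2 fold changes were -0.32 ± 0.30 SE, -0.25 ± 0.31 SE and -0.25 ± 0.32 SE in the same order. Without control library 3 they were -0.02, 0.06 and 0.06.

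The remaining complex I genes were lower and more scattered. mt-Nd4l (9877 to 10173), which overlaps mt-Nd4 by 7 bases, ran from 2239 TPM (control library 5) to 8952 TPM (control library 3). mt-Nd3 (9459 to 9806) had 3120 ± 1429 TPM in control and 2521 ± 919 TPM in labelled knockout libraries. mt-Nd5 (11742 to 13565), the longest of the 13, had 2893 ± 1188 and 2420 ± 714 TPM. Their log2 fold changes were -0.38 ± 0.40 SE, -0.34 ± 0.45 SE and -0.35 ± 0.37 SE. Without control library 3 they were -0.05, -5.0e-05 and -0.02, and with Gm28438 added mt-Nd3 had -0.16 ± 0.38 SE.

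mt-Nd6 (13552 to 14070) is the only protein-coding gene on the minus strand. It had 3305, 3181, 5470, 2950 and 2303 TPM in control libraries 1 to 5 and 2169, 3217, 2577, 4220 and 5958 TPM in labelled knockout libraries 1 to 5. The highest and the lowest library were both labelled knockout. Its log2 fold change was 0.03 ± 0.41 SE (edgeR adjusted p = 0.986), with either sign depending on the library left out (-0.39 to 0.42). Its transcript is rich in T (43.7%) and G (28.1%) and poor in C (5.97%), whereas C made up 22.1% to 29.97% in the other 12 mRNAs. mt-Nd5 and mt-Nd6 share 14 bases on opposite strands, and whether strand was used in counting is not given in the sources used here, so reads of one strand on the other gene cannot be told apart.

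Start codons differed among the complex I genes, a known feature of this genome. mt-Nd1 begins with GTG, mt-Nd2 with ATA, mt-Nd3 with ATT and mt-Nd5 with ATC in the annotated transcripts, and the other 9 mRNAs with ATG.

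The order of mean levels per length (TPM, all 10 libraries) was mt-Co1, mt-Atp6, mt-Co3, mt-Cytb, mt-Nd1, mt-Atp8, mt-Nd2, mt-Co2, mt-Nd4, mt-Nd4l, mt-Nd6, mt-Nd3, mt-Nd5, mt-Rnr2 and mt-Rnr1. Most neighbours were not separated. mt-Co1 exceeded mt-Atp6 in 6 of 10 libraries, mt-Co3 exceeded mt-Cytb in 5, mt-Nd1 exceeded mt-Atp8 in 5 and mt-Co2 exceeded mt-Nd4 in 5. The gaps that held in all 10 libraries were those between mt-Atp6 and mt-Co3 and between mt-Nd4 and mt-Nd4l. By CPM per kilobase mt-Co1 and mt-Atp6 again led, with 18050 and 14624, mt-Cytb came ahead of mt-Co3, and mt-Nd3 was last with 1372. The placing of mt-Co1, mt-Co2, mt-Co3, mt-Atp6 and mt-Nd3 depends on the division with the nuclear copies described above.

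**Figure D4:**
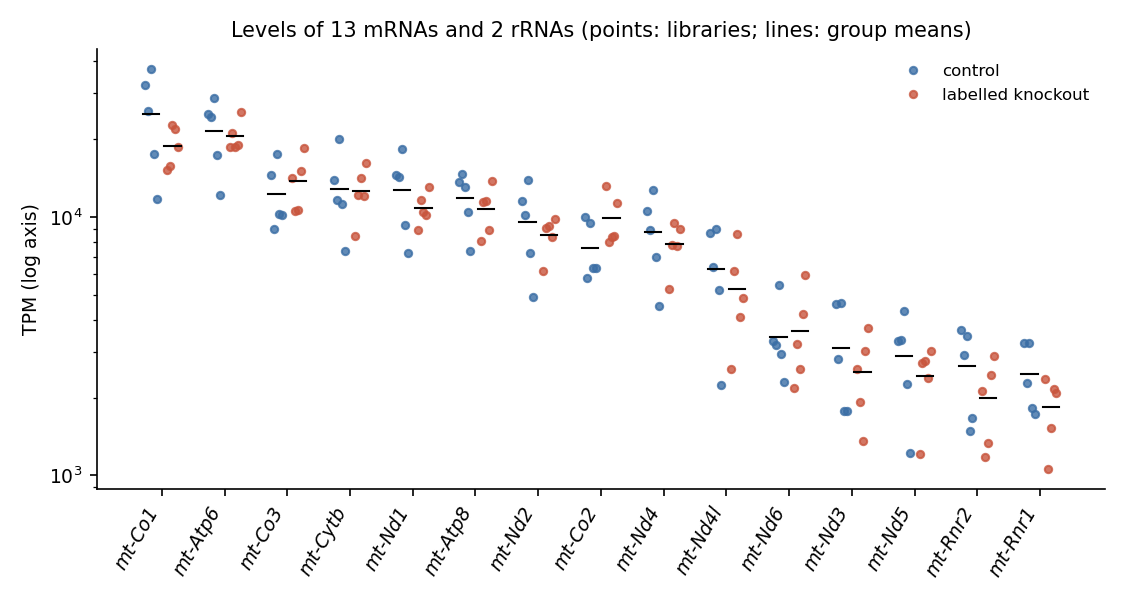
Each point is the TPM of 1 gene in 1 library on a log axis, for the 13 mRNAs and 2 rRNAs in order of mean level; lines are group means. The groups overlap in every gene, and mean levels run from 21841 TPM (mt-Co1) to 2151 TPM (mt-Rnr1).

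mt-Rnr1 and mt-Rnr2 encode the rRNAs of the small and the large mitochondrial ribosomal subunit and lie at the start of the plus-strand transcript. mt-Rnr1 (70 to 1024) had 3257, 2278, 3252, 1826 and 1720 TPM in control libraries 1 to 5 and 2367, 1058, 1520, 2158 and 2074 TPM in labelled knockout libraries 1 to 5. mt-Rnr2 (1094 to 2675) had 3652, 2924, 3460, 1481 and 1668 TPM, and 2113, 1177, 1338, 2439 and 2902 TPM. For both rRNAs the lowest library was labelled knockout library 2. The log2 fold changes were -0.49 ± 0.33 SE and -0.44 ± 0.40 SE (edgeR adjusted p = 0.726 and 0.813), and they stayed negative when any one library was left out (-0.64 to -0.25 and -0.74 to -0.20).

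Ratios within a library compare parts of the mitochondrial transcripts without the total. Of 3 ratios, 1 set the minus strand against the plus strand (mt-Nd6 to mt-Cytb), 1 the rRNA against the mRNA that follows it (mt-Rnr2 to mt-Nd1), and 1 the near against the far end of the plus strand (mt-Nd1 to mt-Cytb). None of these 4 genes has a copy in the chromosome 1 cluster. The log2 ratio of mt-Nd6 to mt-Cytb counts was -3.37 ± 0.15 in control and -3.33 ± 0.41 in labelled knockout libraries (SD, n = 5 each), a difference of 0.04 with an exact two-sided permutation p of 0.849 (also 0.849 adjusted over the 3 ratios). Labelled knockout library 3 was lowest at -3.94 and labelled knockout library 5 highest at -2.90.

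The log2 ratio of mt-Rnr2 to mt-Nd1 was -1.45 ± 0.26 in control and -1.67 ± 0.58 in labelled knockout libraries, a difference of -0.22 (exact permutation p = 0.452, adjusted 0.679). Labelled knockout libraries 2 and 3 were lowest at -2.45 and -2.12, and the other 3 lay between -1.33 and -1.21. The log2 ratio of mt-Nd1 to mt-Cytb was -0.32 ± 0.21 and -0.51 ± 0.20, a difference of -0.18 (exact permutation p = 0.198, adjusted 0.595). It was lowest in labelled knockout library 3 (-0.74) and highest in control library 2 (-0.02). Within the first run the mt-Nd1 to mt-Cytb ratio was -0.24 and -0.02 in control and -0.23 in the labelled knockout library. Within the second it was -0.44, -0.58 and -0.34 against -0.74. The 5 libraries a group allow a p as low as 0.0079.

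The mRNA composition was steadier than the mRNA total. As a share of the 13 mRNAs' counts, mt-Nd2 varied with a coefficient of variation of 6.69% over the 10 libraries and mt-Nd1 with 8.26%, while their CPM varied by 33.1% and 32.9%. Some other shares varied more, by 28.4% for mt-Nd4l, 25.6% for mt-Nd3 and mt-Nd6 and 25.2% for mt-Co3. The CPM of these varied by 33.6% to 48.4%. mt-Co2 was the exception, as its share varied by 35.9% and its CPM by 31.7%. The share of mt-Co2 ran from 2.75% in control library 2 to 8.80% in labelled knockout library 1. mt-Co1 took 31.6% ± 2.96 of the mRNA counts in control and 27.4% ± 3.75 in labelled knockout libraries, with overlap. Across libraries, the 78 pairs of mRNAs had a median Pearson r of 0.72 in log2(TPM + 1), from -0.04 (mt-Nd5 and mt-Co2) to 0.98 (mt-Nd4 and mt-Nd2). These r values share libraries and scaling and carry no test.

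Among nuclear genes averaging 10 TPM or more, the 5 whose log2(TPM + 1) was most like that of mt-Co1 over the 10 libraries were Gm28661 (r = 0.88), Gm28437 (r = 0.83), Mug-ps1 (r = 0.76), Pnrc1 (r = 0.76) and Mlxipl (r = 0.70). The leading pair are the chromosome 1 copies of mt-Co2 and mt-Co3. mt-Co2 and mt-Co3 themselves had an r with mt-Co1 of 0.13 and 0.37. The most negative r values were larger in size than any positive one of a nuclear gene, with Stard10 at -0.96. These r values carry no test, and TPM have a fixed sum in each library.

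The tRNA genes carried few counts, 579 to 1770 per library over all 22. Nearly all were assigned to genes of the minus strand, on which 8 of the 22 lie (mt-Tq, mt-Ta, mt-Tn, mt-Tc, mt-Ty, mt-Ts1, mt-Te and mt-Tp). These 8 took 94.7% of the tRNA counts summed over libraries, and between 92.2% and 96.2% in each library. The annotated lengths of both strands' tRNAs are alike, with medians of 69 bases on the minus and 68 on the plus strand. mt-Tp, mt-Te and mt-Tc together took 85.7% of tRNA counts. Their sequences are shown with the anticodon in capitals, the base triplet that pairs with the mRNA's codon, found as the centre of a 7-base loop closed by a 5-base stem.
mt-Tp (15356 to 15422): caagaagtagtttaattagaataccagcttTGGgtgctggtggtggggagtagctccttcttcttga
mt-Te (14071 to 14139): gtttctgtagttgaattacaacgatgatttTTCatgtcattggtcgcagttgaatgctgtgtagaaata
mt-Tc (5192 to 5257): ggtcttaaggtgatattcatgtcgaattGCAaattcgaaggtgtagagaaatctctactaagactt

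mt-Tp, the proline tRNA, had 666, 416, 811, 331 and 310 counts in control libraries 1 to 5, and 495, 373, 337, 602 and 1012 counts in labelled knockout libraries 1 to 5. Labelled knockout library 5 was highest, and the groups overlapped. The log2 fold change was 0.11 ± 0.43 SE (edgeR adjusted p = 0.959). mt-Te, the glutamate tRNA next to mt-Nd6, had 105 to 397 counts in control and 139 to 308 in labelled knockout libraries, with a log2 fold change of -0.16 ± 0.37 SE.

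mt-Tc, the cysteine tRNA, had the smallest p of all members. It had 237, 130, 321, 115 and 110 counts in control libraries 1 to 5, and 95, 50, 39, 186 and 111 counts in labelled knockout libraries 1 to 5. In counts, labelled knockout libraries 4 and 5 lay within the control range, library 5 only just, and the other 3 below it. In TPM, 4 of the 5 labelled knockout libraries were below the lowest control (control library 5, 176 TPM), library 5 among them (144 TPM). Library totals do not give this order: labelled knockout library 5 had 111 of 20.91 M counts and control library 5 had 110 of 21.33 M. The log2 fold change was -1.01 ± 0.49 SE (95% interval -2.08 to 0.06, edgeR adjusted p = 0.611). DESeq2 gave an adjusted p of 0.388.

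The other 4 tested tRNAs had 6 to 68 counts per library. Log2 fold changes were -0.74 ± 0.44 SE for mt-Tn (asparagine), -0.64 ± 0.48 SE for mt-Tl1 (leucine), -0.58 ± 0.42 SE for mt-Ty (tyrosine) and 0.16 ± 0.46 SE for mt-Ts1 (serine). The 15 tRNAs that did not pass the filter had 0 to 25 counts per library and at most 100 in all. mt-Td and mt-Tt had 0 counts in all 10 libraries. mt-Tt lies between mt-Cytb and mt-Tp, on the opposite strand to mt-Tp, the tRNA gene with the most counts. Since strand use is not stated, reads from the opposite strand cannot be told apart from tRNA reads.

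**Figure D5:**
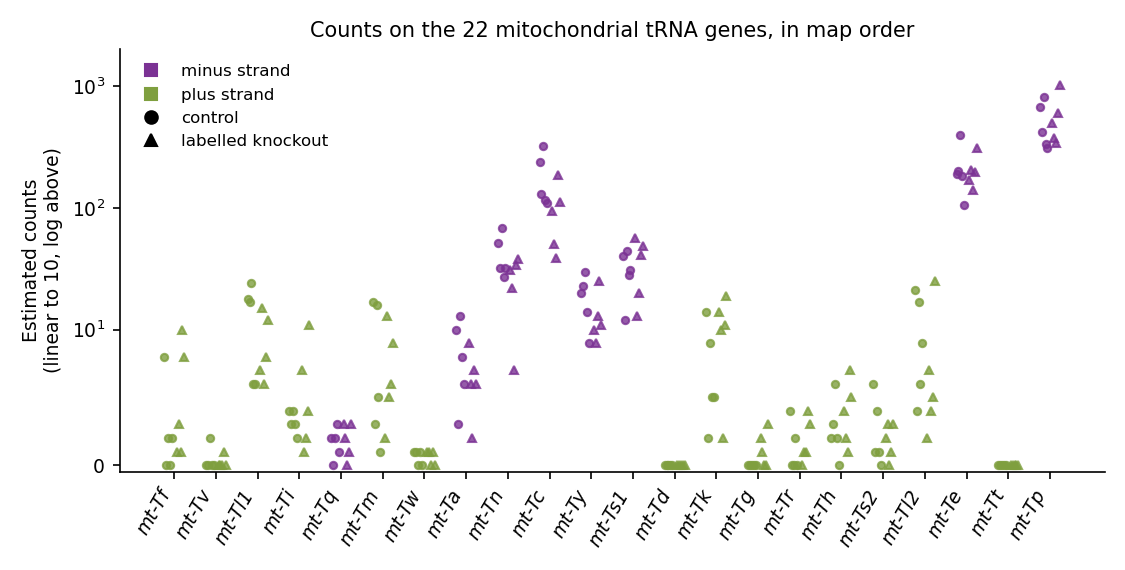
Each point is the estimated count of 1 of the 22 tRNA genes in 1 library (circles control, triangles labelled knockout), coloured by the strand of the gene; the axis is linear up to 10 and logarithmic above. mt-Tp reaches 1012 counts, and no plus-strand tRNA exceeds 25.

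The lists of nuclear genes for mitochondrial functions and stress, here called partner genes, showed no called member either. They include complex II and a stress response list, whose genes need not serve the mitochondrial genome itself. Of the 238 tested nuclear partner genes in 11 lists, 0 were called by edgeR, against 0.357% of all tested genes, and 3 had an unadjusted p under 0.05, which 8.44% of all tested genes had. Their median log2 fold change was 0.02, with 0.00 over all tested genes. Of the 37 nuclear genes tested in the complex I list, 24 had a positive and 13 a negative log2 fold change, with a median of 0.01. Ndufa4, the most abundant in that list with 658 TPM, had 0.07 ± 0.18 SE. It is listed there by its name, although its protein is now placed in complex IV. Ndufa1 had the smallest p (0.19 ± 0.16 SE, edgeR adjusted p = 0.795).

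The other complexes had medians between -0.08 and 0.04. In complex II (median -0.08) all 4 genes had a negative log2 fold change, with Sdha at -0.19 ± 0.16 SE, and complex III (10 genes, 6 of them negative, median -0.05) had Uqcrq at 0.07 ± 0.20 SE. Complex IV (12 genes, median 0.04) had Cox6a1 at -0.03 ± 0.14 SE, and complex V (16 tested genes, median 0.01) had Atp5b at -0.12 ± 0.15 SE. The nuclear genes in these 5 lists, with cytochrome c (Cycs) under complex III, thus had log2 fold changes between -0.19 and 0.26. The mitochondrial mRNAs had log2 fold changes between -0.51 and 0.31.

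Genes for mitochondrial transcription and DNA upkeep (15 tested, median 0.12) included Polrmt, the mitochondrial RNA polymerase, at 0.16 ± 0.11 SE, and Tfam, which packages the DNA and starts transcription, at 0.17 ± 0.11 SE. Mgme1, a nuclease of mitochondrial DNA, had -0.43 ± 0.19 SE (edgeR adjusted p = 0.577). RNA processing and decay genes (22 tested, median -0.11) included Trmt10c, a subunit of the mitochondrial RNase P that frees the tRNAs' 5′ ends, at -0.43 ± 0.16 SE (edgeR adjusted p = 0.495). Its partner subunit Hsd17b10 had -0.25 ± 0.18 SE. The catalytic subunit of the same enzyme, Prorp (listed as 1110008L16Rik), went the other way with 0.18 ± 0.18 SE. Fastkd5, which serves the processing of junctions without a tRNA, had -0.49 ± 0.23 SE (adjusted p = 0.596).

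The mitochondrial ribosomal protein genes (78 tested, median 0.07) had 58 positive and 20 negative log2 fold changes, from -0.22 to 0.30. Mrpl17 was at the upper end with 0.30 ± 0.17 SE (edgeR adjusted p = 0.686). The tRNA synthetases (22 tested, median 0.00) included Nars2, which charges the asparagine tRNA, at -0.26 ± 0.14 SE, and Lars2, for the leucine tRNAs, at 0.38 ± 0.32 SE. Among biogenesis regulators (9 tested, median -0.07), Pprc1, a coactivator related to PGC-1alpha, had -0.88 ± 0.31 SE (edgeR adjusted p = 0.419) and Esrra, a nuclear receptor, 0.31 ± 0.15 SE. In the stress response list (13 tested, median -0.11), Gdf15 had -0.97 ± 0.57 SE and Clpx, a matrix protease subunit, 0.49 ± 0.25 SE, with adjusted p = 0.694 and 0.637.

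Signs of RNA source and quality moved among the libraries beside these values. Of the 9 genes in this list 0 were called, while 5 had an unadjusted p under 0.05 (8.44% of all tested genes did). These were Meg3, an imprinted long noncoding RNA, with a log2 fold change of -2.79 ± 0.77 SE, the immediate early genes Fos (-2.89 ± 0.83 SE), Egr1 (-1.58 ± 0.53 SE) and Jun (-1.32 ± 0.57 SE), and Neat1, a nuclear RNA (1.35 ± 0.60 SE). Their edgeR adjusted p values were 0.262, 0.331, 0.426, 0.583 and 0.590. Meg3 was near the floor, with 0.401 to 2.02 TPM in control and 0 to 0.705 TPM in labelled knockout libraries. Fos had 1.80 to 27.6 TPM and 1.09 to 3.03 TPM, and Egr1 12.8 to 79.6 TPM and 5.87 to 35.9 TPM. The groups overlapped for Meg3, Fos and Egr1. Neat1 had 6.74 ± 3.61 TPM in control and 20.4 ± 10.8 TPM in labelled knockout libraries. Malat1, another nuclear RNA, had 0.07 ± 0.64 SE and ran from 6.79 to 42.6 TPM. Saa1, an acute-phase gene and the most abundant of the list, had 1.86 ± 1.86 SE. Their part in the mitochondrial values was not tested.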

How the data were processed

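Per the submitters' processing notes, reads were handled with Trim Galore 0.6.4, kallisto 0.4.6 and the build GRCm38.p6. The authors deposited estimated counts and TPM per gene. Genes were matched to GENCODE M21 (GRCm38) by Ensembl ID without version, and all 37 members also matched with version. Sequences come from the transcripts of that release. Estimated counts were rounded, filtered (filterByExpr), scaled by TMM and tested with edgeR 4.0.16 (quasi-likelihood, group only, Benjamini-Hochberg) in R 4.3.3. The test was checked on simulated counts, where 66.0% of genes changed 2-fold and 86.2% of those changed 4-fold were called. The changed genes were drawn at random from all genes past the filter. These rates therefore need not hold for the mitochondrial genes, whose median SE was 0.37 against 0.19 over all tested genes. Alternatives were DESeq2 1.42.0, limma 3.58.1 on log2(TPM + 1) and log2(TPM + 0.1), other scalings, no filter, a replicate block, the file number run and leaving out each library. Adding nuclear copies to their genes was chosen after seeing the data. Genes named were all mRNAs and rRNAs, tRNAs past the filter, chromosome 1 copies, Acvrl1, the 5 nuclear genes most like mt-Co1, and from each nuclear list without a called member the 3 smallest p and the most abundant, of which some are shown. Neat1, Jun, Malat1, Cep295, Gm13340, Gm13341, Stard10, Asns, Prorp and tRNAs under the filter fall outside it and were chosen with their values known. Members and lists were chosen with earlier results of these data known.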

Additional observations from a re-analysis of the deposited data

Results flagged for a closer look

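In 5 cases 1 library lay far from the other 4 of its group by Dixon's criterion, among 106 groups of 5 examined, and chance flags about 1 group in 20. In control library 5 the nuclear copies took 27.5% of the counts on members plus copies, against 19.9% to 21.6% in the other control libraries. In the same library Gm29216 took 37.4% of the mt-Co1 pair, against 21.2% to 24.5%. In labelled knockout library 1, Gm28661 took 31.6% of the mt-Co2 pair, against 54.7% to 60.3% in the others of its group. In control library 1, minus-strand tRNA genes took 92.8% of tRNA counts, against 95.3% to 96.0%. mt-Ty stood at 47.2 TPM in labelled knockout library 4, against 13.8 to 20.2 TPM.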

How the results depend on the processing

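No mitochondrial gene was called under any of the 20 alternatives. The nuclear partner genes had 0 calls except without control library 4, which gave 1 (Asns, an amino acid synthetase of the stress list). Over all genes tested, 46 were called, against 152 by DESeq2, 119 with no filter, 33 by limma on log2(TPM + 1), 34 and 33 without control libraries 1 and 5, 83 without labelled knockout library 1 and 5 with the file number run as a covariate. The replicate block gave 40. Replicate numbers did not pair the libraries (r of same-numbered libraries from -0.10 to 0.28, and 2 of 5 matched their own number best), and the block changed no call of a member. With the block, exact paired sign flips gave adjusted p values of 0.875, 0.563 and 0.563 for the 3 ratios, but the smallest p that 5 pairs allow is above 0.05, so this test could not pass the threshold whatever the data.

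Leaving out 1 library in turn, the difference in mitochondrial share ran from -2.38 to 0.31 percentage points. The mt-Nd6 to mt-Cytb difference ran from -0.071 to 0.19, mt-Rnr2 to mt-Nd1 from -0.34 to -0.02, and mt-Nd1 to mt-Cytb from -0.25 to -0.11. With the first and second runs only, the mt-Nd6 to mt-Cytb difference was -0.31. Log2 fold changes ran from -0.43 to 0.058 for mt-Nd2, -0.41 to 0.035 for mt-Atp8, -0.34 to 0.13 for mt-Atp6, -0.16 to 0.39 for mt-Co3, -0.42 to 0.058 for mt-Nd4, -0.39 to 0.42 for mt-Nd6 and -0.36 to 0.24 for mt-Cytb. Other sign changes were mt-Co3 at -0.17 and mt-Nd6 at -0.69 with the run as a covariate, mt-Nd6 at -0.024 with the replicate block, mt-Cytb at 0.011 in both limma fits, and mt-Co2 (-0.21) and mt-Co3 (-0.12) with nuclear copies added. The cause of these changes was not tested. In all, 281 of 300 fold changes of the 15 mRNA and rRNA genes kept their sign and their side of the threshold. Few counts limit the tRNAs, and shared sequence limits the 5 divided pairs.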
